A study of Mus musculus with 10 samples.

Results

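10 genes that cells switch on within minutes of a growth factor, a neurotransmitter or a stress were measured in a knockdown experiment in Neuro2a cells, a mouse neuroblastoma line. The 10 genes are Egr1, Egr2, Egr3, Fos, Jun, Junb, Ier2, Nr4a1, Dusp1 and Dusp6. They were chosen by name, with earlier results of these data known. All 10 were found by Ensembl identifier among the 55401 gene identifiers of the count files. RNA sequencing covered 10 libraries in 4 groups, all of wild-type genotype and all transfected with plasmid by lipofection. All had 72 h of incubation, so the values are levels at a single time and not a course of induction. The first pair of groups was dCas9-SCN9A (3 libraries), a Cas9 that binds but does not cut DNA directed at SCN9A, and its control dCas9-empty (3 libraries). The second pair was ZF-SCN9A (2 libraries), an engineered zinc-finger protein directed at SCN9A, and mCherry (2 libraries), a fluorescent protein taken here as its control. SCN9A encodes the sodium channel NaV1.7. The share of cells that took up plasmid is not given in the sources used here, so each library may mix transfected and untransfected cells in unknown proportion. The study asked how expression changed in these cells when either repressor lowered the channel gene.

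Immediate early genes need no new protein for their induction, because the factors that switch them on are already in place and are activated by phosphorylation. The Ras, Raf, MEK and ERK kinase cascade is one main route to them, acting through ternary complex factors and SRF at their promoters, and calcium and cyclic AMP act through CREB. Most of the 10 encode transcription factors that then start a second round of transcription. Dusp1 and Dusp6 encode phosphatases that switch MAP kinases off again, and their RNA is used as a readout of pathway activity. In neurons several of these genes, Fos and Egr1 above all, are read as markers of recent electrical activity.

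The dCas9-SCN9A libraries held 15.4 to 16.4 M gene counts (M stands for 1e6) and the dCas9-empty libraries 17.8 to 19.0 M. The ZF-SCN9A libraries held 6.30 and 4.41 M and the mCherry libraries 6.59 and 7.48 M. Scn9a, the targeted gene, stood at 31.0, 30.8 and 28.2 CPM, counts scaled to 1e6 gene counts, with dCas9-SCN9A, against 75.3, 81.1 and 78.3 CPM with dCas9-empty. It stood at 18.8 and 15.7 CPM with ZF-SCN9A, against 62.4 and 56.3 CPM with mCherry. Each repressor library thus lay below every library of its control. Summed markers of neuroblastoma and sympathoadrenal cells came to 2644 to 2886 CPM with dCas9-SCN9A, 2672 to 2795 CPM with dCas9-empty, 2109 to 2160 CPM with ZF-SCN9A and 2225 to 2270 CPM with mCherry. Immune markers summed to at most 2.60 CPM in any library. In bulk RNA, fewer cells of a kind and less RNA per cell cannot be told apart.

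Changes below are log2 fold changes of a repressor over its own control, with the standard error (SE) of an edgeR quasi-likelihood fit across all genes. A gene is called changed at a Benjamini-Hochberg adjusted p under 0.05, adjusted over all genes tested. All adjusted p-values are from that edgeR test unless another tool is named. CPM values are scaled within each pair of groups. Marker sums, CPM per kilobase and levels compared across the 4 groups are instead on a scale common to all 10 libraries.

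All 10 genes were detected in all 10 libraries. Levels can be compared between genes only per length, so CPM were divided by exon length in kilobases for this order. Dusp6 stood highest, with group means of 48.4 to 137 CPM per kilobase over the 4 groups. Ier2 followed with means of 43.8 to 52.6, Junb with 29.2 to 49.2, Jun with 34.2 to 42.0 and Egr1 with 10.3 to 22.1 CPM per kilobase. Nr4a1 lay at 8.62 to 9.28, Dusp1 at 5.15 to 7.80 and Fos at 3.47 to 6.98 CPM per kilobase. Egr2 and Egr3 were the lowest, with means of 0.519 to 0.928 and 0.757 to 1.01 CPM per kilobase, and their ranges over the groups overlapped. The range of Junb overlapped those of Ier2 and Jun, while the range of Ier2 lay above that of Jun.

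The groups of the 2 repressors also differed in level. On a scale common to all 10 libraries, Dusp6 averaged 401 ± 28.7 CPM with dCas9-SCN9A, 428 ± 20.1 CPM with dCas9-empty (SD, n = 3 each), 152 ± 7.34 CPM with ZF-SCN9A and 191 ± 27.5 CPM with mCherry (SD, n = 2 each). Junb averaged 113 ± 4.42, 110.3 ± 6.73, 67.6 ± 5.34 and 67.3 ± 2.93 CPM in the same groups. Both genes were thus lower in either group of the zinc-finger pair than in either dCas9 group. Nr4a1 was the flattest, at means of 30.3 to 32.5 CPM in the 4 groups, and each group overlapped its neighbour in that order. Plasmid, depth and experiment differ together between the pairs and cannot be told apart, so levels across them are given as a description with no test.

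**Figure D1:**
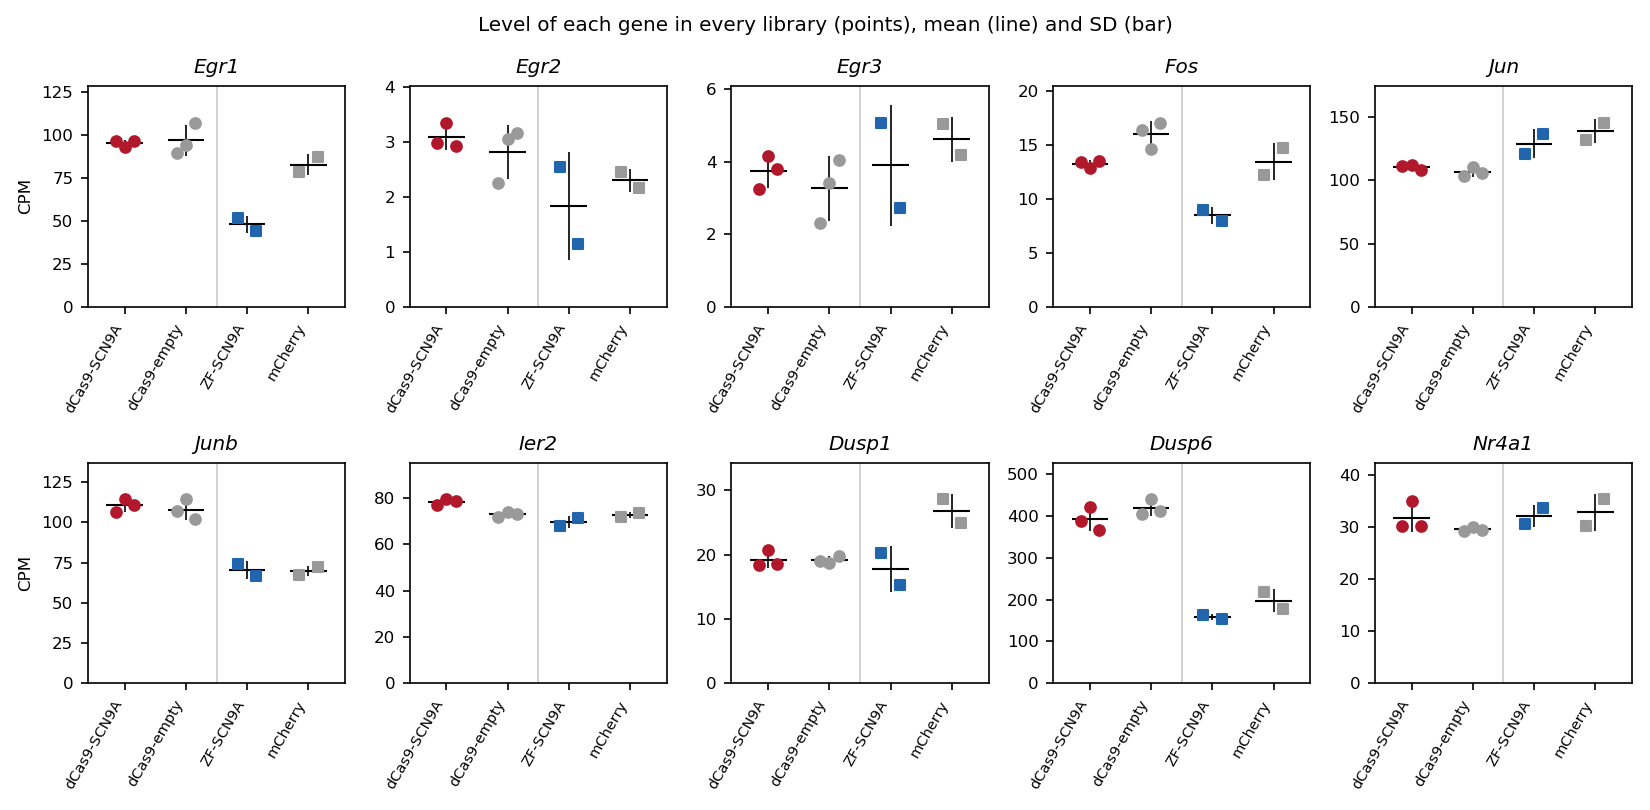
Expression of the 10 immediate early and MAPK feedback genes in CPM (vertical axes, linear, each starting at 0) in every library of the 4 groups. Points are libraries, horizontal lines are group means and vertical bars are SDs (n = 3 in the dCas9 groups, n = 2 in the others). Egr1 lies at 44.3 and 51.5 CPM in the ZF-SCN9A libraries, below 78.3 and 86.8 CPM in the mCherry libraries, while the dCas9-SCN9A and dCas9-empty libraries overlap.

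The EGR proteins are zinc-finger transcription factors that bind a GC-rich site. Egr1 (ENSMUSG00000038418, chromosome 18 from 34859823 to 34864984, plus strand, GRCm38) is the family member most often used as a readout of ERK signalling. It had 51.5 and 44.3 CPM in the ZF-SCN9A libraries, against 78.3 and 86.8 CPM in the mCherry libraries. It had 96.1, 92.5 and 96.1 CPM in the dCas9-SCN9A libraries, against 89.4, 93.9 and 107 CPM in the dCas9-empty libraries. With the zinc finger the groups lay well apart, and with dCas9 the 3 dCas9-SCN9A libraries fell inside the span of the controls. Egr1 fell with the zinc finger, to 47.9 ± 5.09 CPM against 82.5 ± 6.03 CPM with mCherry (SD, n = 2 each). That change was -0.78 ± 0.10 (SE, adjusted p = 2.15e-11), or 58.4% of the mCherry level with a 95% interval of 50.7% to 67.2%. By unadjusted p it ranked 39 of 12899 genes tested. With dCas9 the change was -0.03 ± 0.06 (SE, adjusted p = 0.928), with a 95% interval of the level from 89.4% to 108% of dCas9-empty.

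Egr2 (ENSMUSG00000037868, chromosome 10 from 67535475 to 67542188), which drives myelination and hindbrain patterning, was counted too rarely for a firm value. It had 16 and 5 reads in the ZF-SCN9A libraries, against 16 and 16 reads in the mCherry libraries. Its change was -0.24 ± 0.51 with the zinc finger (SE, adjusted p = 0.882) and 0.13 ± 0.21 with dCas9 (SE, adjusted p = 0.893). Egr3 (ENSMUSG00000033730, chromosome 14 from 70077203 to 70082614), needed for muscle spindles, had 32 and 12 reads with ZF-SCN9A, against 33 and 31 with mCherry. Its change was -0.18 ± 0.36 with the zinc finger (SE, adjusted p = 0.874) and 0.19 ± 0.22 with dCas9 (SE, adjusted p = 0.828). For both genes the second ZF-SCN9A library, the shallowest of all, was low and the first lay slightly above both mCherry libraries. The interval of Egr2 with the zinc finger ran from 42.4% to 169% of the mCherry level, so a change of the size seen for Egr1 was not detectable at this depth.

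Fos, Jun and Junb encode subunits of AP-1, a dimeric factor in which a Fos protein pairs with a Jun protein. Fos (ENSMUSG00000021250, chromosome 12 from 85473890 to 85477273, plus strand) was the one member whose libraries lay below all controls with both repressors. It had 9.02 and 7.94 CPM with ZF-SCN9A, against 12.2 and 14.7 CPM with mCherry. It had 13.5, 12.9 and 13.5 CPM with dCas9-SCN9A, against 16.4, 14.7 and 17.1 CPM with dCas9-empty. Neither comparison passed adjustment. The change was -0.66 ± 0.22 with the zinc finger (SE, unadjusted p = 0.0032, edgeR adjusted p = 0.0608) and -0.27 ± 0.10 with dCas9 (SE, unadjusted p = 0.0128, edgeR adjusted p = 0.353). With an offset for exon length the zinc-finger value was -0.68 and passed (edgeR adjusted p = 0.0475), and over all 14 alternatives its adjusted p ran from 0.0475 to 0.637.

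Jun (ENSMUSG00000052684, chromosome 4 from 95049034 to 95052222, minus strand), a single-exon gene and the main partner of Fos, had 121 and 137 CPM with ZF-SCN9A, against 132 and 146 CPM with mCherry. Its groups overlapped with both repressors, and its change was -0.12 ± 0.08 with the zinc finger and 0.05 ± 0.05 with dCas9 (SE, edgeR adjusted p = 0.519 and adjusted p = 0.774). Junb (ENSMUSG00000052837, chromosome 8 from 84974484 to 84978718, minus strand), a Jun relative with weaker transactivation, had 74.3 and 66.5 CPM with ZF-SCN9A, against 67.4 and 72.0 CPM with mCherry. Its change was 0.02 ± 0.10 with the zinc finger and 0.04 ± 0.06 with dCas9 (SE, edgeR adjusted p = 0.954 and adjusted p = 0.882). Its level with the zinc finger lay between 88.7% and 116% of mCherry by the 95% interval, which leaves out a fall of the size of that of Egr1. Counting did not separate strands, and the antisense RNA Junos overlaps 7.28% of the exon bases of Jun, and Prdx2 7.52% of those of Junb, so reads there cannot be assigned.

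Ier2 and Nr4a1 encode nuclear proteins, the second an orphan nuclear receptor also called Nur77. Ier2 (ENSMUSG00000053560, chromosome 8 from 84661331 to 84662852) had 67.6 and 71.3 CPM with ZF-SCN9A, against 71.5 and 73.5 CPM with mCherry. It had 76.9, 79.3 and 78.6 CPM with dCas9-SCN9A, against 71.7, 73.9 and 72.9 CPM with dCas9-empty. The groups did not overlap in either comparison, and the repressor libraries lay below the controls with the zinc finger and above them with dCas9. Neither value passed, at -0.07 ± 0.10 with the zinc finger and 0.10 ± 0.05 with dCas9 (SE, edgeR adjusted p = 0.821 and adjusted p = 0.538). Nr4a1 (ENSMUSG00000023034, chromosome 15 from 101254269 to 101274795) had 30.6 and 33.6 CPM with ZF-SCN9A, against 30.3 and 35.3 CPM with mCherry. Its change was -0.04 ± 0.14 with the zinc finger and 0.11 ± 0.08 with dCas9 (SE, edgeR adjusted p = 0.925 and adjusted p = 0.696).

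Dusp1 and Dusp6 encode dual-specificity phosphatases of the negative feedback on MAP kinases. Dusp1 is nuclear and acts on p38, JNK and ERK, while Dusp6 is cytoplasmic and acts mainly on ERK. Dusp1 (ENSMUSG00000024190, chromosome 17 from 26505590 to 26562128, minus strand) had 20.3 and 15.2 CPM with ZF-SCN9A, against 28.6 and 24.9 CPM with mCherry. It fell with the zinc finger, by a change of -0.56 ± 0.16 (SE, adjusted p = 0.0149), to 17.7 ± 3.58 CPM against 26.8 ± 2.58 CPM (SD, n = 2 each). With dCas9-SCN9A it had 18.4, 20.7 and 18.6 CPM, against 19.1, 18.7 and 19.8 CPM with dCas9-empty. Those groups overlapped, and the change was 0.01 ± 0.09 (SE, adjusted p = 0.988).

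Dusp6 (ENSMUSG00000019960, chromosome 10 from 99263231 to 99267489, plus strand) had 163 and 153 CPM with ZF-SCN9A, against 217 and 178 CPM with mCherry. It too fell with the zinc finger, with a change of -0.32 ± 0.07 (SE, adjusted p = 0.0012). The mCherry libraries differed from each other by 1.23-fold, and the gap from the higher ZF-SCN9A library to the lower mCherry library was narrower than that. With dCas9-SCN9A it had 387, 421 and 367 CPM, against 404, 439 and 411 CPM with dCas9-empty, and the change was -0.10 ± 0.06 (SE, adjusted p = 0.636). The calls of both phosphatases rested on single libraries. Without mCherry replicate 1 the change of Dusp1 was -0.46 (adjusted p = 0.244) and that of Dusp6 -0.16 (adjusted p = 0.443). Without ZF-SCN9A replicate 2 they were -0.40 (adjusted p = 0.412) and -0.27 (adjusted p = 0.168). DESeq2 called neither, with adjusted p = 0.402 for Dusp1 and adjusted p = 0.213 for Dusp6.

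The promoters of Dusp1 and Dusp6, which fell with the zinc finger, and of Fos, whose groups lay apart with both repressors, are shown with that of Nr4a1, whose groups overlapped with the zinc finger, as 250 bases before the gene start from RefSeq (GRCm38.p6). The RefSeq starts of Dusp1 and Nr4a1 lie inside the gene spans given above, which are from GENCODE M21. Distances below are from the RefSeq starts. Promoters of 7 of the 10 genes were searched, and those of Egr1, Egr3 and Ier2 were not. Capitals mark matches to the cyclic AMP response element TGACGTCA and its core TGACG, the EGR site GCGNGGGCG, all searched on both strands, and the TATA box TATAAA on the gene's strand. The full element holds the core on each strand.
Dusp1 promoter, chr17:26508473-26508722, minus strand: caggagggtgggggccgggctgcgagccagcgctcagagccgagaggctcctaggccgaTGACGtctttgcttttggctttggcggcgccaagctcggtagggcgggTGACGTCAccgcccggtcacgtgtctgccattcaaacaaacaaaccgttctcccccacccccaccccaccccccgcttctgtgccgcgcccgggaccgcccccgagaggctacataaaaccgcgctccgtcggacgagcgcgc
Dusp6 promoter, chr10:99262981-99263230, plus strand: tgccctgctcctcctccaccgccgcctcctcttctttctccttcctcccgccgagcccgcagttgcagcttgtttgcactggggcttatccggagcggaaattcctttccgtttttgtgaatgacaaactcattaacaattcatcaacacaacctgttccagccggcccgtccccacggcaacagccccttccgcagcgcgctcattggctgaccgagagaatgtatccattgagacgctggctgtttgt
Fos promoter, chr12:85473640-85473889, plus strand: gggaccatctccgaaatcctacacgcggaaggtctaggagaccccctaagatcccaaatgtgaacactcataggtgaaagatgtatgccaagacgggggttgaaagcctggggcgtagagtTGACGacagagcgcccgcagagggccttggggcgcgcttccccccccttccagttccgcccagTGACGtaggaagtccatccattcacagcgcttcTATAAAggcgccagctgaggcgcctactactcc
Nr4a1 promoter, chr15:101266596-101266845, plus strand: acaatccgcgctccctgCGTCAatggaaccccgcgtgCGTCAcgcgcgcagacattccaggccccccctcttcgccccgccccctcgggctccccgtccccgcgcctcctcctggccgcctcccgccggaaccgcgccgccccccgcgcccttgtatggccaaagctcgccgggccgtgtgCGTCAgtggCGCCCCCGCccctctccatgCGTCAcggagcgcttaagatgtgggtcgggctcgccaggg
The promoter of Dusp1 holds the full TGACGTCA, 143 bases before the start, which is in 1.79% of the 32851 promoters of the table over the same 300 bases (250 before the start and 50 after). The core TGACG is commoner, at 20.8% of promoters. It also lies once more in Dusp1 at 191 bases before the start, in Fos at 129 and 66, and 4 times in Nr4a1. The EGR site, in 5.55% of promoters, was matched in Nr4a1, and the TATA box, in 8.32%, in Fos at 33 bases before the start. The Dusp6 promoter held none of these letters, nor did that of Jun, which is not shown. The AP-1 site TGANTCA, in 7.81% of promoters, was matched in none of the 4. The SRF site, called the CArG box and in 1.63% of promoters, was also matched in none of the 4. It was matched in promoters of Egr2, which are not shown. Matches occurred in Nr4a1, which was not called, as well as in Dusp1, which was.

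Counted together, 0 of the 10 genes were called with dCas9, where edgeR called 0.041% of the 14628 genes tested. Fos alone had an unadjusted p under 0.05, 1 gene of 10 against 10.1% of all genes, and DESeq2 called 0 as well. The groups did not overlap for 3 of 10, Fos lower and Ier2 and Nr4a1 higher, against 15.6% of all genes. For Nr4a1 the gap was slight, with a lowest dCas9-SCN9A library of 30.13 CPM and a highest dCas9-empty library of 30.05 CPM. The median change of the 10 genes was 0.05, against 0.01 over all genes tested. With the zinc finger 3 of the 10 genes were called, Egr1, Dusp1 and Dusp6, all lower, against 4.72% of the 12899 genes tested and 2.78% called lower. Fos and these 3, all lower, had an unadjusted p under 0.05, or 4 of 10 against 8.4% of all genes. The groups did not overlap for 5 of 10 genes, all lower, against 22.3% of all genes. Of the 10, 9 had a negative change, where 50.4% of all genes had a positive one, and their median was -0.21 against 0.00 over all genes. The members were chosen with earlier results of these data known, and they share libraries. These shares are therefore a description and no test of the set. For 88.0% of genes in the zinc-finger fit the spread was wholly shared across genes, so these p-values rest on that shared spread more than on 2 libraries a group. An exact permutation test over libraries cannot go below p = 0.1 with dCas9 and p = 0.333 with the zinc finger.

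**Figure D2:**
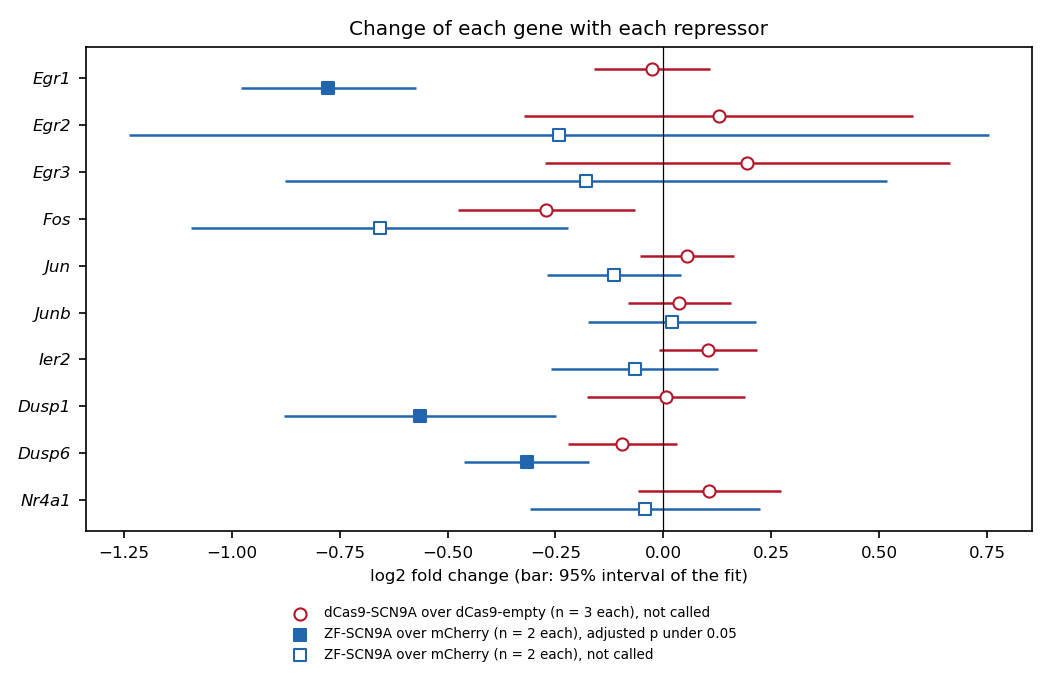
Log2 fold change (horizontal axis) of each of the 10 genes with dCas9-SCN9A over dCas9-empty and with ZF-SCN9A over mCherry. Points are fitted changes and bars 95% intervals of the edgeR fit. The intervals of Egr1, Fos, Dusp1 and Dusp6 lie below 0 with the zinc finger, and that of Fos also with dCas9, though neither Fos value passed adjustment over all genes.

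Whether the repressors differed in their effect on a gene was tested as the dCas9 change minus the zinc-finger change over all 10 libraries. Egr1 passed this test, with a difference of 0.76 ± 0.12 (SE, 95% interval 0.51 to 1.00, adjusted p = 2.97e-04), where 0.907% of 15766 genes passed. The other 9 did not pass. Dusp1 had a difference of 0.58 ± 0.18 (SE, adjusted p = 0.142), Fos 0.39 ± 0.22 (SE, adjusted p = 0.521) and Dusp6 0.23 ± 0.11 (SE, adjusted p = 0.445). All 10 differences were above 0, where 49.9% of all genes were. They ran from 0.02 for Junb to 0.76 for Egr1, with a median of 0.30 against 0.00 over all genes. Over the alternatives Egr2 went as low as -0.20 and Junb as low as -0.050. The members share libraries, so this count of signs is a description and not a test. The changes of Dusp1 and Dusp6 with the zinc finger are therefore not shown to differ from their changes with dCas9.

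The 10 genes did not vary as one block. Over the 10 libraries, with the mean of each pair of groups taken out, log2 CPM of Egr1 ran with Fos at r = 0.89 and with Dusp1 at r = 0.87 but with Junb at r = -0.00. Egr2 and Egr3 ran together at r = 0.94, and Jun ran with Ier2 at r = 0.77. These r share libraries, depth and the group differences above and are a description. By the same measure over 12833 genes, the genes most like Egr1 were Fam13b (r = 0.98), Gramd4 (r = 0.98) and Med12 (r = 0.97). Those most like Fos were Fyco1 (r = 0.97), E330009J07Rik (r = 0.97) and Zc3hav1l (r = 0.96).

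In all, 7 lists of genes around the pathway put the 10 members in context, with 126 genes between them. With dCas9, 0 of the 110 that could be tested were called by edgeR, and 20 had an unadjusted p under 0.05, where 10.1% of all genes did. DESeq2 and limma-voom called 0 as well, while edgeR called 1, Atf3, with no filter (0.50) and in a fit of all 10 libraries (0.51). With the zinc finger 15 of 109 were called, 6 higher and 9 lower, which is 13.8% against 4.72% of all genes. The lists too were chosen with earlier results known, so their shares, here and below, are a description. DESeq2 called 5 list genes. With a library left out edgeR called 5 without mCherry replicate 1, 22 without mCherry replicate 2, 8 without the first ZF-SCN9A library and 5 without the second. Of 33 other immediate early genes tested, 2 rose and 0 fell with the zinc finger, and their median change was 0.16. Bhlhe40, a circadian and hypoxia-linked repressor, rose to 112 ± 7.46 CPM with ZF-SCN9A against 73.0 ± 8.60 CPM with mCherry (SD, n = 2 each), a change of 0.61 ± 0.09 (SE, adjusted p = 1.43e-09). Atf3, a stress-induced factor of the ATF family, rose to 40.8 ± 0.266 CPM with ZF-SCN9A against 28.6 ± 2.62 CPM with mCherry, a change of 0.51 ± 0.13 (SE, adjusted p = 0.00545). With dCas9 the change of Atf3 was also 0.51 ± 0.12 (SE) but was not called (adjusted p = 0.156). In a fit of all 10 libraries the zinc-finger change of Bhlhe40 was 0.61 and not called (adjusted p = 0.180), and Atf3 lost its call without mCherry replicate 1 (0.42, adjusted p = 0.153), without ZF-SCN9A replicate 1 (0.50, adjusted p = 0.145) and without ZF-SCN9A replicate 2 (0.52, adjusted p = 0.0647).

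Nab1 and Nab2 encode corepressors that bind EGR proteins and limit their activity. Nab1 had 422 and 265 reads in the ZF-SCN9A libraries, against 715 and 735 reads in the mCherry libraries. It fell with the zinc finger, to 63.5 ± 4.71 CPM against 104 ± 7.24 CPM with mCherry (SD, n = 2 each), a change of -0.71 ± 0.09 (SE, adjusted p = 1.39e-11). With dCas9 its change was -0.03 ± 0.06 (SE, adjusted p = 0.894), and the difference between the repressors was 0.68 ± 0.11 (SE, adjusted p = 2.32e-04). Nab1 thus had changes close in size to those of Egr1 in both comparisons. Nab2 had a change of 0.08 ± 0.18 with the zinc finger and -0.04 ± 0.09 with dCas9 (SE, edgeR adjusted p = 0.892 and adjusted p = 0.933).

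Among 17 other feedback genes of ERK tested with the zinc finger, 2 rose and 1 fell, where 4.72% of all genes were called. Their median change was 0.12. Phlda1, a pleckstrin-homology protein induced by ERK, fell, with a change of -0.59 ± 0.15 (SE, adjusted p = 0.00299). Dusp4, a nuclear MAP kinase phosphatase, rose, with a change of 0.20 ± 0.06 (SE, adjusted p = 0.0398), and had -0.19 ± 0.06 with dCas9 (SE, adjusted p = 0.298). The difference for Dusp4 was -0.38 ± 0.09 (SE, adjusted p = 0.0210), the opposite sign to that of Egr1. Etv5, an ETS factor induced by ERK, rose, with a change of 0.22 ± 0.07 (SE, adjusted p = 0.0440). Among the phosphatases Dusp1 and Dusp6 were thus called lower and Dusp4 higher with ZF-SCN9A. Phlda1 was called in 11 of 14 alternatives. Among others, it lost its call without mCherry replicate 1 (-0.44) and without ZF-SCN9A replicate 2 (-0.45). Dusp4 and Etv5 lost theirs in 8 and 9 of 14 alternatives.

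Of 19 genes of the ERK cascade tested with the zinc finger, 0 rose and 3 fell, where 2.78% of all genes were called lower. Among those that fell were Rps6ka3, the kinase RSK2 downstream of ERK (-0.37 ± 0.08, SE, adjusted p = 1.39e-04), and Braf, a Raf kinase (-0.31 ± 0.09, SE, adjusted p = 0.0148). Of 17 factors that act at immediate early promoters, 0 rose and 3 fell, against the same 2.78%. These were Mef2a (-0.39 ± 0.08, SE, adjusted p = 8.65e-05), the cyclic AMP factor Creb1 (-0.32 ± 0.10, SE, adjusted p = 0.0287) and the coactivator Ep300 (-0.23 ± 0.07, SE, adjusted p = 0.0434). Srf itself had a change of 0.24 ± 0.11 and was not called (SE, adjusted p = 0.242). Rps6ka3 was called in 12 of 14 alternatives, and among others lost its call without mCherry replicate 1 (-0.27). Braf, Creb1 and Ep300 were called in 8, 7 and 4 of the 14. Mef2a kept its call in all 14, and its difference between the repressors was 0.36 ± 0.09 (SE, adjusted p = 0.0417).

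Of 12 growth factor receptors tested, 2 rose and 1 fell with the zinc finger, where 4.72% of all genes were called in either direction. Fgfr1, a fibroblast growth factor receptor, fell, at 136 ± 10.2 CPM with ZF-SCN9A against 177 ± 11.5 CPM with mCherry (SD, n = 2 each), a change of -0.39 ± 0.08 (SE, adjusted p = 3.48e-05). Ret, the receptor for the GDNF family, rose, at 1127 ± 20.4 CPM with ZF-SCN9A against 909 ± 56.4 CPM with mCherry, a change of 0.31 ± 0.06 (SE, adjusted p = 3.72e-05). Fgfr3 rose, with a change of 0.67 ± 0.18 (SE, adjusted p = 0.00749). The difference between the repressors passed for Fgfr1 (0.40, adjusted p = 0.0296) and Ret (-0.42, adjusted p = 0.0261). Of 9 p38 and JNK kinases tested, 0 were called by edgeR with the zinc finger. Just 1 had an unadjusted p under 0.05, lower, against 8.4% of all genes. Map2k7, which activates JNK, had -0.21 and Mapk14, the main p38 kinase, -0.14. Fgfr1 lost its call without ZF-SCN9A replicate 1 (-0.31) and Ret without ZF-SCN9A replicate 2 (0.29). Fgfr3 was called in 10 of 14 alternatives. Among others, it lost its call without mCherry replicate 1 (0.45) and without ZF-SCN9A replicate 2 (0.54).

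With dCas9 the genes of smallest p in these lists were Atf3, given above, and genes with lower values. Crebbp, the coactivator CBP that binds phosphorylated CREB, had a change of -0.23 ± 0.06 (SE, adjusted p = 0.219). Igf1r, the receptor for insulin-like growth factor, had -0.21 ± 0.05 (SE, adjusted p = 0.212), Nf1, a Ras inhibitor, -0.19 ± 0.06 (SE, adjusted p = 0.312), and Homer1, a synaptic scaffold, -0.23 ± 0.07 (SE, adjusted p = 0.280). Spred1, an inhibitor of Raf, had -0.12, Braf -0.16, Ep300 -0.19 and Insr, the insulin receptor, -0.20, while Map2k7 had 0.14 and Mapk12, a p38 kinase, 0.21, and none of these was called. Crebbp, Igf1r, Nf1 and Homer1 had dCas9-SCN9A libraries below every dCas9-empty library. Groups did not overlap for 15.6% of all genes, and these genes were named for their small p, so the gap adds no support. In this pair changes ran with exon length over genes, at a Spearman rho of -0.35. With an offset for exon length the change of Crebbp was -0.14, that of Igf1r -0.098, that of Nf1 -0.083 and that of Homer1 -0.15, and those of Braf, Ep300 and Insr were -0.073, -0.10 and -0.11.

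**Figure D3:**
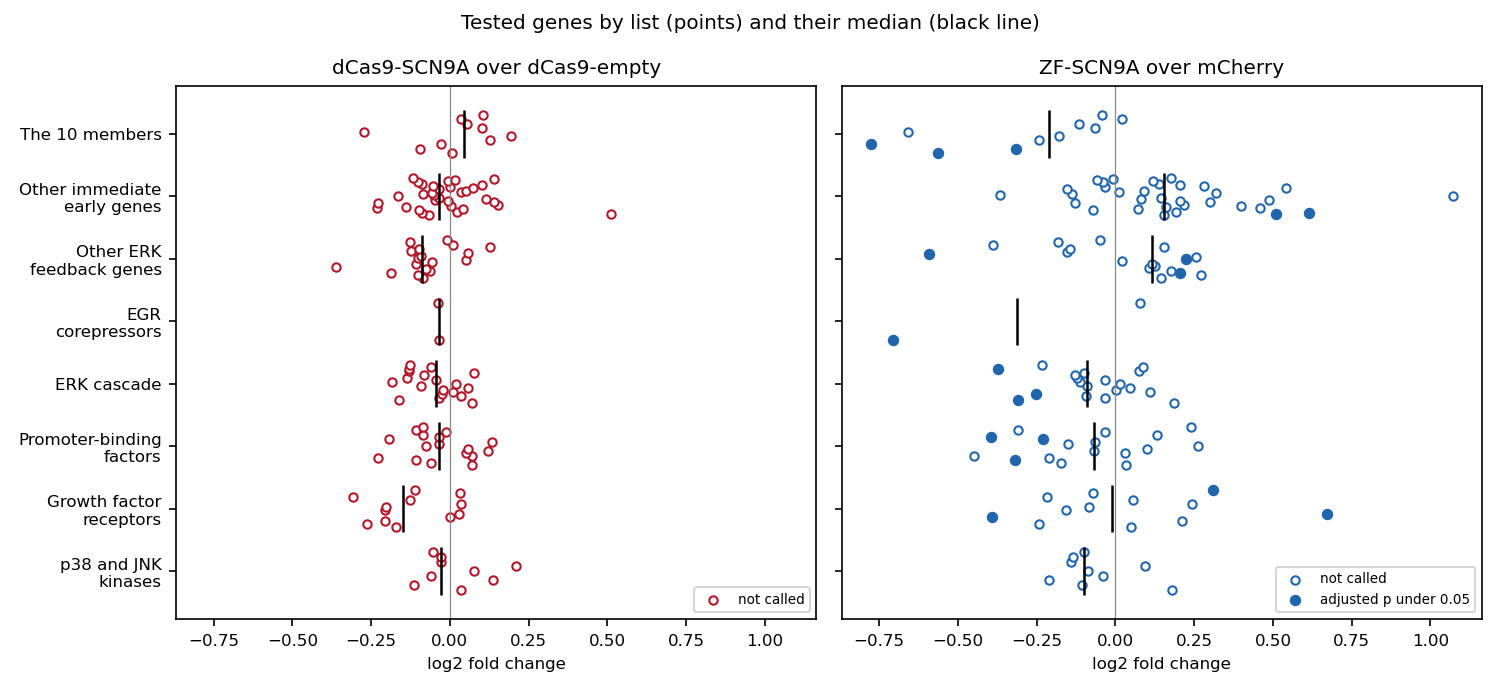
Log2 fold change of every tested gene of the 7 pathway lists and of the 10 members, with dCas9-SCN9A over dCas9-empty and ZF-SCN9A over mCherry. Each point is a gene, black lines are medians, and filled points passed an adjusted p under 0.05. With the zinc finger the members lie from -0.78 to 0.02, and the other immediate early genes have a median of 0.16.

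Some markers of the line and 1 of handling were called with the zinc finger beside these genes. Of 11 neuroblastoma and sympathoadrenal markers tested, 4 were called, against 4.72% of all genes. Gata2 (-0.58), Isl1 (-0.41) and Hand2 (-0.20), all transcription factors of sympathoadrenal cells, fell, and Dbh (0.71), which makes noradrenaline, rose. Of 3 genes of the stress list tested, 1 was called. This was Hmox1, a haem oxygenase induced by oxidative stress, which rose by 1.08 ± 0.08 (SE). Dnajb1 (0.15 ± 0.09, SE, adjusted p = 0.417) and Hspa8 (0.08 ± 0.06, SE, adjusted p = 0.565) were not called. The stress list summed to 1718 to 1786 CPM with ZF-SCN9A, against 1522 to 1625 CPM with mCherry, and none of its 5 genes was at 0 throughout. Most of that sum was Hspa8, with means of 1540 CPM with ZF-SCN9A and 1458 CPM with mCherry, scaled within the pair. Fibroblast markers summed to 15.0 to 20.9 CPM with ZF-SCN9A, against 13.2 to 17.9 CPM with mCherry, and Lum and Thy1 stayed under 1 CPM. Of the 3 fibroblast markers tested 1 was called, Col1a1, a collagen chain, which rose to 6.40 ± 1.03 CPM with ZF-SCN9A against 3.09 ± 0.173 CPM with mCherry (SD, n = 2 each), a change of 1.07 ± 0.35 (SE, adjusted p = 0.0452). Endothelial markers summed to 56.6 to 58.2 CPM with ZF-SCN9A, against 48.6 to 53.6 CPM with mCherry, with 0 of the 3 tested called by edgeR. Glial markers summed to 31.2 to 36.2 CPM with ZF-SCN9A, against 31.6 to 32.5 CPM with mCherry, and Gfap, Aqp4, Sox10 and Olig2 stayed under 1 CPM. Their part in the changes of Egr1, Dusp1 and Dusp6 was not tested.

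**Figure D4:**
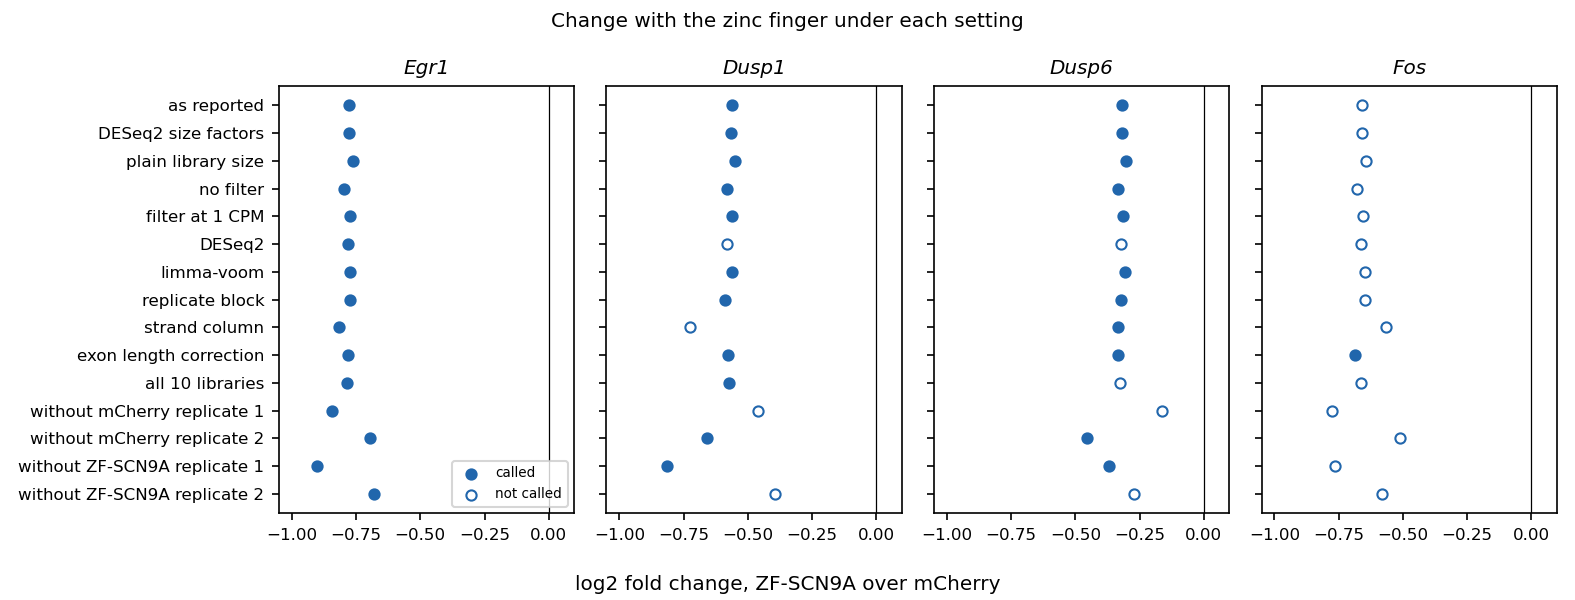
Log2 fold change of Egr1, Fos, Dusp1 and Dusp6 with ZF-SCN9A over mCherry, as reported (top row) and under each of 14 alternatives of processing (rows below). Filled points passed an adjusted p under 0.05. Egr1 passes in all 14, from -0.90 to -0.68, Dusp1 and Dusp6 in 10 each, and Fos in 1.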

How the data were processed

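RNA of Neuro2a cells was sequenced in 10 libraries, after plasmid transfection and 72 h of incubation per the labels' protocols. The deposited values are raw counts of reads per gene, made by the authors with bcl2fastq 2.20, STAR 2.7.3a and build GRCm38, per the submitters' processing notes, which also name DESeq2. The unstranded column was used, since both strand columns held about equal reads. Entries that name no gene held 25.0% to 28.2% of reads and, with 4 plasmid entries, were kept out.

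Genes were named from GENCODE M21. The members and lists were chosen with earlier results of these data known. The text names all members and, of each list, the genes called (at most 4, by p) or, with none called, the 2 of smallest p; some list genes are not reported here. Changes were tested with edgeR 4.0.16 (quasi-likelihood, robust, TMM scaling, filterByExpr by group) in R 4.3.3, each repressor with its own control and the difference over all 10 libraries, with 4, 2 and 6 residual degrees of freedom. Tested on simulated data, edgeR recovered 84.8% of 2-fold changes with dCas9 (14566 genes) and 80.8% with the zinc finger (12837 genes), and 62% of 2-fold differences between the repressors (15628 genes). Alternatives used DESeq2 1.42.0 and limma 3.58.1, other scalings, filters, the strand column, an exon length offset, a replicate term, and each library left out. Genes singled out beyond the rule (Srf, Nab2 with the zinc finger, Hmox1) were chosen after their values were seen. In all 8 replicate pairs a chi-square test found differences above sampling noise. The labels do not say that they were separate cultures, so p-values measure the spread between these libraries, which may be technical.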

Additional observations from a re-analysis of the deposited data

Results flagged for a closer look

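Egr1 had different changes in the 2 pairs of groups, which also differ in control, depth and experiment. It had 96.1, 92.5 and 96.1 CPM with dCas9-SCN9A, against 89.4, 93.9 and 107 CPM with dCas9-empty, and 51.5 and 44.3 CPM with ZF-SCN9A, against 78.3 and 86.8 CPM with mCherry. The dCas9 change minus the zinc-finger change was 0.76 ± 0.12 (SE, edgeR adjusted p = 2.97e-04). It passed in all 19 alternatives, at 0.66 to 0.88, with a highest adjusted p of 0.0174.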

How the results depend on the processing

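With dCas9, 6 genes of the whole table were called, against 172 with no filter, 28 with DESeq2, 13 with the strand column, 2 with the exon length offset and 29 in a fit of all 10 libraries, and 1 to 34 with a library left out. 0 of the 10 members were called in all 16 of these and the other alternatives. With the zinc finger 609 genes were called, against 128 with DESeq2, 283 with the strand column and 348 in a fit of all 10 libraries, and 201 to 787 with a library left out. Of the members 3 were called, against 1 with DESeq2 and 1 to 3 with a library left out. For the difference between the repressors 143 genes were called, against 274 with no filter and 89 with limma-voom, and 71 to 241 with a library left out.

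Replicate numbers are shared between groups, and the main fits did not take them to pair libraries. Deviations of same-numbered libraries correlated at 0.24, 0.16 and 0.04 with dCas9 and 0.065 with the zinc finger. These values cannot decide whether libraries were paired. With 2 libraries a group, the zinc-finger correlations of unlike numbers are the same value with the sign turned, -0.065. Each dCas9-SCN9A library correlated best with the dCas9-empty library of its own number. The dCas9-empty replicate 3 correlated better with dCas9-SCN9A replicate 2 (0.099) than with its own number (0.040). A fit that takes the number as a replicate block called 262 genes with dCas9 and 429 for the difference, where 2 members passed, Egr1 and Dusp1 (0.60, adjusted p = 0.0423). With dCas9 that fit called 7 list genes, Atf3 and Mapk12 higher and Crebbp, Dusp4, Ep300, Igf1r and Insr lower.

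Signs turned round only for values near 0 or rarely counted genes. Dusp1 with dCas9 was -0.0025 with no filter and -0.012 with the exon length offset. With the zinc finger Junb was -0.0086 with that offset and Nr4a1 was 0.035 with the strand column, and the difference for Egr2 was -0.20 with the strand column. With a library left out, dCas9 changes ran from -0.076 to 0.056 for Egr1, -0.0031 to 0.22 for Egr2, -0.045 to 0.041 for Dusp1, -0.054 to 0.013 for Nab1 and -0.12 to 0.049 for Nab2. Zinc-finger changes ran from -1.005 to 0.14 for Egr2, -0.75 to 0.14 for Egr3, -0.071 to 0.092 for Junb and -0.15 to 0.077 for Nr4a1, and differences from -0.0099 to 1.15 for Egr2 and -0.050 to 0.11 for Junb. Dusp1 with the zinc finger was -0.72 with the strand column (adjusted p = 0.0602), and Dusp6 was -0.32 in a fit of all 10 libraries (adjusted p = 0.0530). The cause was not tested. Egr2 was too rare to be tested in the strand column of the zinc-finger pair. With 1 library left in a group, its spread is assumed to be that of the other group. Depth limits Egr2 and Egr3, with 5 to 33 reads in the zinc-finger pair.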
